A study of Mus musculus with 18 samples.

Results

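Translational arrest by cycloheximide (CHX), an inhibitor of the elongating ribosome, was examined in fibroblasts responding to the type I interferon IFNα. Of the 18 arrays of the series, the 6 that received IFNα were compared: 3 with CHX (labelled IFNa, + CHX) against 3 without (IFNa, w/o CHX), with arrays placed in groups by these labels. All cells were of a single mouse fibroblast line, NIH-3T3. They were pretreated for 15 min with CHX or with its solvent DMSO, then received 100 U/ml IFNα for 1 h, and 500 µM 4-thiouridine (4sU) was present during the last 30 min, so that the CHX groups had been exposed to CHX for 75 min at harvest. The RNA labelled by 4sU was purified and hybridised, and every value below is therefore the level of RNA made within that pulse. The other 12 arrays, 3 per treatment, were mock-treated cells and cells given 100 U/ml IFNγ, each with and without CHX on the same schedule. They were used to ask whether a difference with CHX was particular to IFNα, and share no array with the 6 of the main comparison.

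IFNα binds its receptor on the cell surface, and the kinases attached to it activate transcription factors that bind, with IRF9, the interferon-stimulated response element (ISRE) in promoters of IFN-stimulated genes (ISGs). IFNγ acts through another receptor. Many ISGs encode antiviral effectors, and a few, such as *Usp18* and the *Socs* genes, encode proteins that dampen the signal. When no protein can be made, a gene that needs a newly made activator is expected to lose induction, and one held back by a short-lived or newly made repressor to gain it, which is the question this design addresses.

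Replicate arrays of the 2 IFNα groups correlated with r between 0.971 and 0.995 over all probe sets, and arrays of different IFNα groups with r between 0.943 and 0.971. Of the 15 genes that mark fibroblasts all were expressed and none was called, at a summed intensity of 64220 to 66479 per array with IFNα and 74778 to 79283 with CHX. Of 14 leukocyte markers on the array 10 stayed below an intensity of 8.5 on all 3 IFNα arrays, including *Ptprc*, *Itgam* and *Csf1r*, as did 9 of 11 epithelial markers and 8 of 10 endothelial markers. Among those tested, *Cd68* was called (log2 difference 1.54), with which the summed leukocyte markers went from between 318 and 425 to between 381 and 812. *Flt1* was called too (1.30), on 1 of its 3 probe sets, and the sum of the endothelial markers went from between 65.0 and 77.1 to between 80.1 and 127. The epithelial sum was 70.9 to 74.0 and 73.6 to 75.6. The call of *Cd68* was lost without IFNα replicate 1 or 3 or IFNα + CHX replicate 1 (adjusted p up to 0.0171) and that of *Flt1* without any array except IFNα + CHX replicate 1 (up to 0.0419). The part of these markers in the results below was not tested. Bulk RNA was measured, so that fewer cells of a kind and less RNA per cell cannot be told apart.

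CHX changed newly made RNA in IFNα cells in both directions and in nearly equal numbers. A gene or probe set counts as called where the adjusted p was under 0.01 and the change at least 2-fold, by limma with Benjamini-Hochberg adjustment over all 27773 probe sets tested. On this rule 991 probe sets were higher with CHX (3.57%) and 994 lower (3.58%). Taking for each gene the probe set with the highest mean, 483 of 12121 genes were higher (3.98%) and 543 lower (4.48%), with a median size of 1.54 and 1.41 on the log2 scale. The median over all genes was -0.0117. Rises were the more extreme, with 17 genes over 20-fold against 1 of the falls. All log2 differences are with CHX minus without CHX unless said otherwise.

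Most of these changes were also seen without IFN. In mock cells CHX raised 309 genes (2.55%) and lowered 656 (5.41%), and in IFNγ cells 401 (3.31%) and 923 (7.61%). The 543 falls of IFNα cells had the same sign in mock cells without exception, and 430 of them were called there, which is 79.2% of the falls in IFNα cells and 65.5% of those in mock cells. Of the 483 rises 463 had the same sign in mock cells, but only 251 were called there (52% of the rises in IFNα cells and 81.2% of those in mock cells). With IFNγ the shared calls were 463 falls (85.3% and 50.2% of either list) and 286 rises (59.2% and 71.3%). Across the 12121 genes, which are not independent replicates, the 2 sets of log2 differences correlated with r = 0.882 for mock and r = 0.857 for IFNγ cells. These are counts past a threshold. The difference between the cells was tested itself and is given next.

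**Figure D1:**
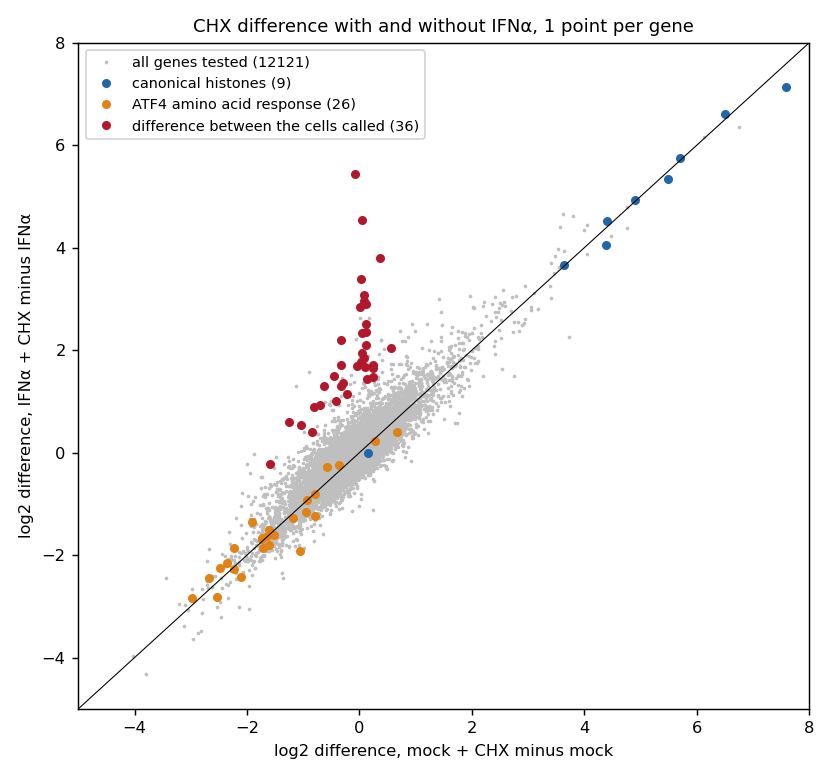
Log2 difference with CHX in mock cells (x axis) and in IFNα cells (y axis), 1 point per gene, from 3 arrays per treatment. The line marks equal values. Canonical histone genes (blue) and ATF4 target genes (orange) lie along the line, whereas the 36 genes whose difference between the cells was called (red) lie above it.

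The CHX difference was larger in IFNα than in mock cells for 36 genes (0.297% of those tested; 52 probe sets) and smaller for none (0%; no probe set) by limma. Larger and smaller refer to the signed difference here and below, so that a lesser fall counts as larger. At an unadjusted p under 0.05 and at least 2-fold, 136 genes were larger and 8 smaller. ISGs made up much of the 36: 14 belonged to the 51 tested antiviral ISGs, 2 to the 9 GTPase genes of the IRG and GBP families, and 2 to the 16 genes of the MHC class I pathway, whereas 17 were in none of the lists used. After median centring of the arrays 28 probe sets were called in place of 52, and none smaller.

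Several of the largest differences were found for genes that IFNα alone left near the mock level. *Cxcl9*, a chemokine gene that recruits T cells, had log2 intensities of 3.32, 3.71 and 3.32 on the 3 IFNα arrays and 9.28, 9.08 and 8.32 with CHX. Both groups were well apart, and the mock means were 2.71 without and 2.63 with CHX. The difference of 5.44 (SE 0.21, adjusted p = 8.52e-10) exceeded that of mock cells by 5.52 (SE 0.30, adjusted p = 7.20e-07). A second probe set differed by only 0.63 (adjusted p = 0.0592), so that the probe sets of *Cxcl9* disagreed in size. *Cxcl11*, which encodes a ligand of the same receptor, went from 3.19, 3.12 and 3.17 to 8.15, 8.09 and 6.84 (difference 4.54, SE 0.30, adjusted p = 1.96e-07), with mock means of 3.04 and 3.09. Its second probe set differed by only 0.46 (adjusted p = 0.0858), so that these disagreed as well. On the first probe set of *Cxcl11* the CHX difference was not particular to IFNα: IFNα minus IFNγ cells gave -0.77, which was not called (adjusted p = 0.925). *Nlrc5*, the transactivator of MHC class I genes, was at 2.35, 2.43 and 2.32 with IFNα and at 6.36, 5.95 and 6.21 with CHX added. Here the mock level moved only from 2.38 to 2.75, and the difference of 3.81 (SE 0.15, adjusted p = 9.66e-10) was 3.43 above that of mock cells (SE 0.21, adjusted p = 1.47e-06). Against IFNγ cells the CHX difference of *Nlrc5* was larger by 1.15, which was not called (adjusted p = 0.0239).

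*Cyp26a1*, which encodes an enzyme that degrades retinoic acid, rose from 2.10, 2.07 and 2.07 to 5.91, 5.22 and 5.26. *Sp100*, a nuclear body gene, rose from 3.61, 3.67 and 3.54 to 6.78, 5.86 and 6.89. A second probe set of low level fell by 1.09 and was called (adjusted p = 1.35e-04), so that its probe sets disagreed in direction. The apolipoprotein L gene *Apol7a* went from 4.20, 3.51 and 3.51 to 6.82, 6.70 and 6.92. In each of these 3 genes the lowest array with CHX was above the highest without, as in 2280 of the 12121 genes tested. The genes were named for the size of their differences, which favours such a separation. The excess over mock cells was 3.35 (SE 0.34), 2.80 (SE 0.27) and 3.00 (SE 0.24), with adjusted p of 1.73e-04, 1.54e-04 and 1.73e-05. *Oas1c*, of the oligoadenylate synthetase family, had the same pattern (2.58, 2.58 and 2.56 against 5.26, 4.71 and 4.84) and was picked after its values were seen, as were *Il15ra*, *Ppm1k* and *Casp4*, which rose by 1.65, 1.71 and 2.04. Levels near 3.09, the log2 of the filter on low values, hold mostly background, so the size of a rise from there depends on the scale. The IFNα arrays of *Nlrc5*, *Cyp26a1* and *Oas1c* lay below that filter without CHX and above it with CHX. On log2(value + 16) the rise of *Nlrc5* was 2.06 and that of *Cyp26a1* 1.58, and the excess over mock cells was 1.05 for *Oas1c* and 0.49, no longer called, for *Il15ra*.

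A second pattern was that of ISGs already induced by IFNα and raised further by CHX. *Rsad2*, the gene of the antiviral protein viperin, was at 6.28, 6.19 and 5.73 with IFNα and at 9.22, 8.98 and 8.89 with CHX, against mock means of 3.08 and 3.16. Its difference of 2.96 (SE 0.14, adjusted p = 8.67e-09) was 2.89 above that of mock cells, and a second probe set gave 3.87 (SE 0.28, adjusted p = 6.17e-06). *Oasl1*, which encodes an inhibitor of *Irf7* translation, went from 4.99, 5.39 and 5.21 to 7.20, 8.56 and 8.35 and exceeded mock cells by 2.83 (SE 0.34, adjusted p = 0.00113). *Tap1*, a peptide transporter of antigen presentation, rose from 6.43, 6.22 and 6.16 to 8.67, 8.45 and 8.28 (difference 2.19, SE 0.22, adjusted p = 7.18e-06). Its CHX difference exceeded that of IFNγ cells by 1.02, which was not called (adjusted p = 0.341). In *Rsad2*, *Oasl1* and *Tap1* the arrays with and without CHX did not overlap, which held in the rising direction for 2280 of the 12121 genes tested. The genes were named for the size of their differences, which favours such a separation. For *Iigp1*, *Mx2* and *Irgm2*, all strongly induced GTPase genes, the means with IFNα and CHX were higher by 1.95, 1.77 and 1.67, while the CHX differences in mock cells were 0.05, 0.03 and 0.10.

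In a further pattern CHX lowered a gene in mock cells and did not in IFNα cells. The patterns given do not cover every gene. *Parp12*, *Rnf213* and *Trim25*, induced by IFNα alone, were called with CHX in neither IFNα nor mock cells. Their CHX differences were 0.90, 0.94 and 0.41 in IFNα cells and -0.80, -0.71 and -0.84 in mock cells. The genes given here were picked after their values were seen. *Nampt*, an enzyme of NAD synthesis, fell in mock cells from 8.46, 8.72 and 8.18 to 7.51, 7.28 and 7.44 (difference -1.05, adjusted p = 1.92e-04), and was at 9.04, 8.96 and 9.07 with IFNα and 9.79, 9.53 and 9.40 with IFNα and CHX. *Itgb8*, an integrin gene, fell in mock cells by 1.59 (adjusted p = 5.92e-06) and differed by -0.22 in IFNα cells (adjusted p = 0.366), where IFNα alone had already brought it to 5.45, 5.24 and 4.94, close to the 4.96 to 5.01 with CHX. *Gpr155* fell by 1.26 in mock cells and differed by 0.60 in IFNα cells (adjusted p = 0.0525). Of the 37 probe sets that these differences from mock cells concern, 12 lost the call when 1 array was left out. Among them were *Itgb8* and *Gpr155*, each without any of 10 of the 12 arrays. *Casp4* and *Parp14* lost it without any of 11 (adjusted p up to 0.0312 and 0.0273). *Trim30d* lost it without any of 8 (adjusted p up to 0.0184) and *Parp12* without either of 2 (up to 0.0109).

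**Figure D2:**
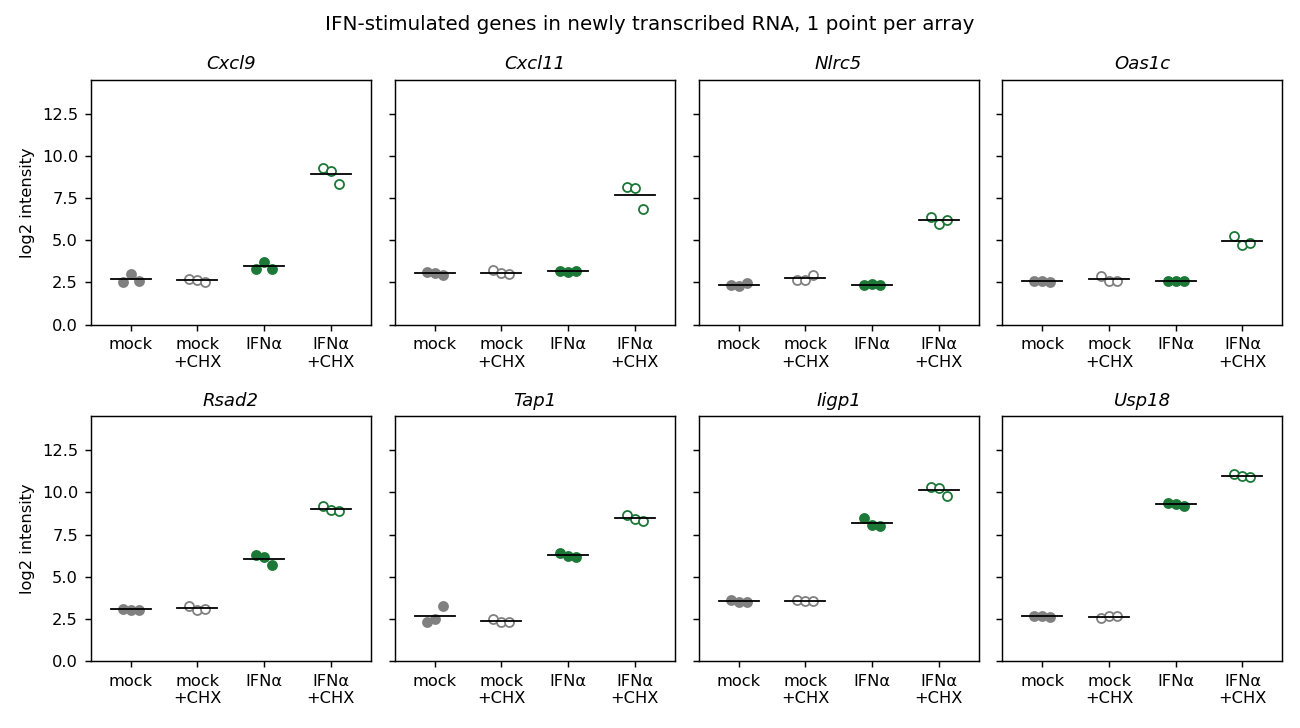
Log2 intensity of 8 ISGs in mock (grey) and IFNα cells (green), without (filled) and with CHX (open), 1 point per array and a line at the mean of 3 arrays. In the upper row the level with IFNα alone is within 1 log2 unit of the mock level and that with IFNα and CHX is above all others, while in the lower row IFNα alone already raised the gene.

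**Figure D3:**
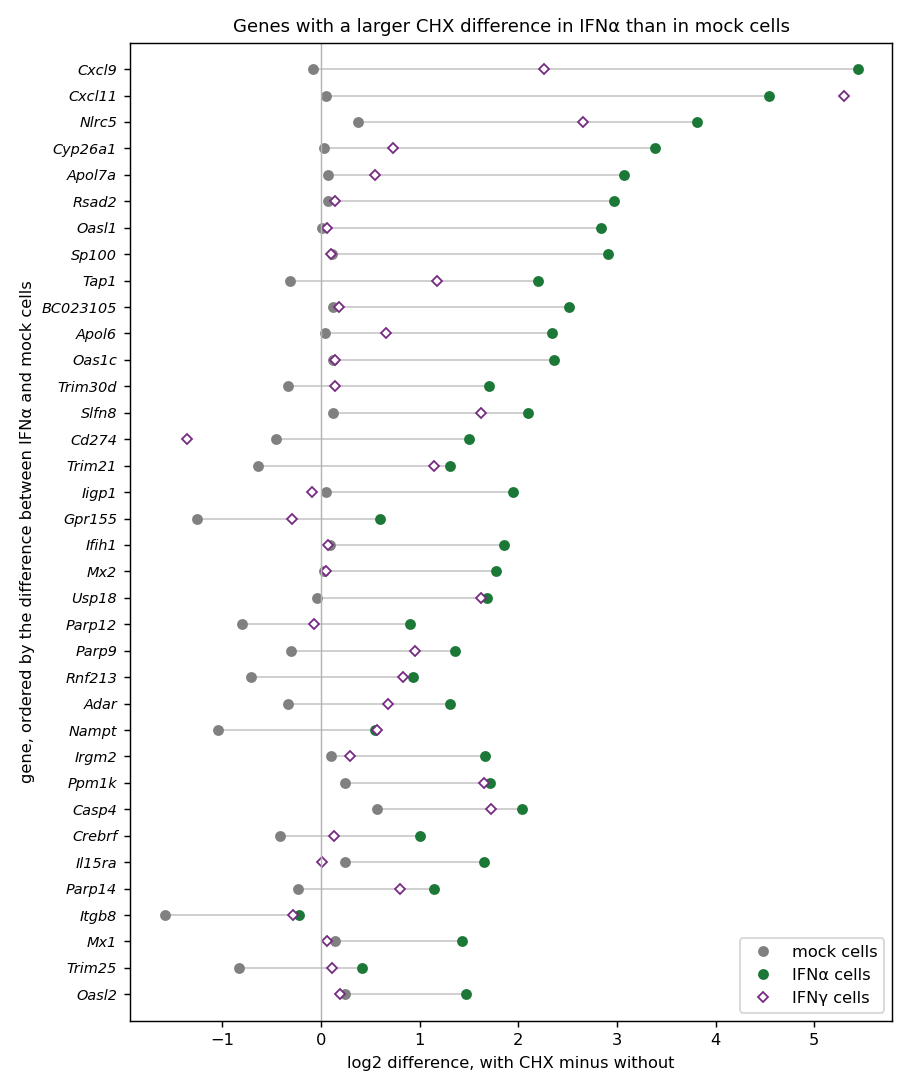
Log2 difference with CHX (x axis) in mock (grey), IFNα (green) and IFNγ cells (open diamonds) for the 36 genes with a called difference between IFNα and mock cells, 1 row per gene. Green points lie to the right of grey ones by the rule that chose the genes, and the diamonds of *Rsad2*, *Oasl1* and *Mx2* lie at the grey points. The diamond of *Usp18* lies near its green point.

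To show promoters of ISGs and GTPase genes that CHX raised in IFNα cells, stretches of 30 bases around matches to the ISRE core GAAANNGAAA are given with the match in capitals. Of these genes *Gbp2*, *Gbp3* and *Gbp7* were not called in the comparison with mock cells. They come from the RefSeq promoter windows of GRCm38.p6, which run from 250 bases before to 50 after an annotated start, and are written 5′ to 3′ on the strand named.
*Rsad2* (chr12:26456553-26456582, plus strand): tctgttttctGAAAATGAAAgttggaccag
*Oas1c* (chr5:120812609-120812638, plus strand): ccgggaaatgGAAACTGAAAgtcccatttc
*Trim30d* (chr7:104507871-104507900, plus strand): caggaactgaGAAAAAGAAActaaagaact
*Irgm2* (chr11:58214903-58214932, plus strand): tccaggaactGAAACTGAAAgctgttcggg
*Gbp2* (chr3:142620594-142620623, minus strand): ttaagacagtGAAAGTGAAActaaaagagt
*Gbp3* (chr3:142559989-142560018, minus strand): ctgggaaataGAAACTGAAActgtgtcctg
*Gbp7* (chr3:142530273-142530302, minus strand): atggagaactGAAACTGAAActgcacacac
These matches lie between 31 and 110 bases before the start, and *Gbp3* and *Oas1c* each have a second match that overlaps it. Searched on both strands, the core stood in 6 of the 7 GTPase genes with a window (85.7%), in 17 of 40 antiviral ISGs (42.5%) and in 7 of 26 genes with a larger CHX difference in IFNα than in mock cells (26.9%), against 363 of the 9821 tested genes with a window (3.7%) and 3.44% of all 32851 windows. A match describes letters and not a bound site.

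Of 60 antiviral ISGs listed 51 were tested. Of these, 23 were called higher with CHX (45.1%, against 3.98% of all genes), 0 lower and 28 neither. The median difference was 0.94 and the range -0.18 to 2.96. In mock cells the median of the same genes was 0.04. The 4 called members that changed most were *Rsad2*, *Sp100*, *Oasl1* and *Cmpk2*, the last a nucleotide kinase gene that went from 4.81, 4.08 and 3.29 to 7.66, 6.34 and 6.07 (difference 2.63, SE 0.36, adjusted p = 1.40e-04). Not every induced ISG was called, although *Ifit1* rose without overlap of its arrays. *Ifit1*, chosen after its values were seen, was at 12.66, 12.56 and 12.54 with IFNα and at 13.30, 13.34 and 13.16 with CHX (0.68, adjusted p = 0.0206), *Rtp4* differed by 0.41 (adjusted p = 0.298) and *Ifi35* by -0.07 (adjusted p = 0.967), with overlapping arrays in the last. *Isg20* and *Helz2* were called (2.33 and 1.43) and rose in mock cells too (1.88 and 1.93), with differences between the cells of 0.45 and -0.51 that were not called.

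GTPases of the IRG and GBP families, which attack the vacuoles of intracellular pathogens, gave 8 called rises among 9 tested genes and no fall (median 1.67, and 0.11 in mock cells). The rises were 88.9% of the list, against 3.98% of all genes. *Gbp3* rose from 8.32, 8.69 and 8.38 to between 10.38 and 10.65, *Gbp6* by 2.03 (SE 0.21), *Iigp1* by 1.95 (SE 0.17) and *Gbp7* by 1.87 (SE 0.22), with adjusted p between 2.89e-06 and 4.60e-04. The remaining member, *Irgm1*, differed by 0.97 (adjusted p = 0.0303). The count was 5 without IFNα replicate 3 or without IFNα + CHX replicate 1 or 2.

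Genes of IFN signalling itself gave 4 rises (28.6%, against 3.98% of all genes) and no fall among 14 tested (median 0.53). *Irf1*, a transcription factor gene induced early by IFNs, went from 11.99, 12.02 and 11.81 to 13.46, 13.51 and 13.36 with CHX (1.504, SE 0.24, adjusted p = 4.47e-04). In mock cells CHX raised it by 2.74, from a mean of 7.99 to 10.73, and the difference between the cells was not called (-1.24, adjusted p = 0.312). *Ifngr1*, a chain of the IFNγ receptor, rose by 1.17 (SE 0.12) and *Irf3*, which responds to viral nucleic acid, by 1.01 (SE 0.13). CHX raised them in mock cells by 0.98 and 0.90, and the differences between the cells, 0.19 and 0.11, were not called. *Irf7*, the regulator that amplifies type I IFN production, had overlapping arrays (4.16, 5.13 and 4.46 against 6.09, 6.75 and 4.97) and a called difference of 1.36 (SE 0.32, adjusted p = 0.00822). Its call was lost without IFNα replicate 1 or 3 or IFNα + CHX replicate 1 or 2 (adjusted p up to 0.0423), and that of *Irf3* fell under 2-fold without IFNα + CHX replicate 1 or 2 (0.99 and 1.00), so that 2 rises were left without either of these 2 arrays. *Irf9* (0.88, adjusted p = 0.0546) and *Stat2* (0.72, adjusted p = 0.594), also of this list, were not called.

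Among 15 tested negative regulators of IFN signalling 2 were higher (13.3%, against 3.98% of all genes) and 1 lower (6.67%, near the 4.48% of all genes), with a median of 0.02. *Usp18*, whose product shuts off signalling at the IFNα receptor, rose from 9.36, 9.35 and 9.17 to 11.08, 10.96 and 10.89 (1.68, SE 0.15, adjusted p = 3.27e-06), whereas in mock cells CHX changed it by -0.04. Its CHX difference exceeded that of IFNγ cells by only 0.06, which was not called. *Socs2* rose by 1.15 (SE 0.22, adjusted p = 0.00190), a call lost without IFNα replicate 2 or 3 or IFNα + CHX replicate 1 or 2 (adjusted p 0.0103 to 0.0115), and its 3 other probe sets were not called (0.92, 0.46 and -0.00). *Sh2b3*, an adaptor that restrains JAK2, fell from 9.70, 9.83 and 9.31 to 8.38, 8.05 and 7.98 (-1.47, SE 0.26, adjusted p = 9.87e-04), as it did in mock cells (-1.35). Without IFNα + CHX replicate 1 there were 2 falls. *Socs1* (-0.30) and *Socs3* (-0.07) did not pass the test.

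In the MHC class I pathway, which loads peptides for display to T cells, 6 of 16 tested genes rose and none fell. The rises were 37.5% of the list, against 3.98% of all genes, and the median was 0.01. Led by *Nlrc5* and *Tap1*, the rises included *Tapbp*, the tapasin gene (1.46, SE 0.13, adjusted p = 3.94e-06), and the class I heavy chain *H2-K1* (1.42, SE 0.26, adjusted p = 0.00132), the latter on a probe set that can also bind related class I genes. In mock cells *Tapbp* rose by 0.997, or just under 2-fold (adjusted p = 1.35e-04), and the difference between the cells was not called (0.46). The arrays of *Tapbp* were at 9.71, 9.65 and 9.39 with IFNα and on average 11.04 (SD 0.051) with CHX.

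The second cytokine gave a further comparison, which uses the same 6 IFNα arrays as the one with mock cells. The CHX difference was larger in IFNα than in IFNγ cells for 26 genes (0.215%) and smaller for 17 (0.14%), or 39 and 24 probe sets, of which the first fell to 25 after median centring. Among antiviral ISGs 9 of 51 were larger and none smaller, and of the GTPases 4 of 9. *Rsad2* (3.91, SE 0.28, adjusted p = 3.87e-06, on the second probe set) had a CHX difference of 0.01 in IFNγ cells. *Cxcl9* (3.18, SE 0.30) was already at 11.04, 10.80 and 10.65 with IFNγ and reached 13.20, 13.05 and 13.02 with CHX. For *Gbp2* (3.02, SE 0.32) and the eotaxin gene *Ccl11* (3.13, SE 0.29) the CHX differences in IFNγ cells were -1.74 and -2.84, with arrays going from 11.51, 11.60 and 11.67 to 9.90, 9.91 and 9.75 in *Gbp2*. *Krtap1-5*, a keratin-associated protein gene, rose from 2.26, 2.23 and 2.26 to 7.87, 6.71 and 5.35 in IFNα cells and also in mock cells, to a mean of 7.01, but stayed at 2.29, 2.51 and 2.32 with IFNγ and CHX (difference 4.26, SE 0.60, adjusted p = 0.00360, lost without any of 8 of the 12 arrays).

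In the other direction, the 4 genes given here stayed at the bottom of the scale in IFNα cells, unlike *Arrdc2*, chosen after its values were seen, which rose by 1.28 there and by 4.35 with IFNγ. *Icam1*, an adhesion molecule gene, was at 2.38, 2.38 and 2.41 with IFNα and 2.56, 2.56 and 2.79 with CHX, but rose from 3.80, 3.85 and 2.79 to 8.55, 8.10 and 7.68 with IFNγ (difference between the cells -4.39, SE 0.34, adjusted p = 9.09e-06). *Serpinb1a* and *Serpinb1b*, which encode protease inhibitors, and the kinase gene *Sgk2* differed by -4.62, -3.97 and -3.22, with CHX differences of -0.01, -0.00 and -0.01 in IFNα cells and of 4.61, 3.96 and 3.20 in IFNγ cells. The second probe set of *Cxcl9* belongs here too (-5.34, SE 0.31), opposite in sign to the first.

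Outside the IFN system the largest rises were shared with mock cells. Canonical histone genes, whose RNA is normally made in S phase, gave 8 rises among 9 tested, with a median of 4.94 and 4.91 in mock cells. The rises were 88.9% of those tested, against 3.98% of all genes. Of 40 canonical histones listed, only these 9 had a probe set annotated with that gene alone. *H2bc21* rose from 4.10, 3.94 and 3.31 to 11.12, 10.83 and 10.79 (7.13, or 140-fold, SE 0.21, adjusted p = 1.11e-10), *H1f2* by 6.80 (6.60 on another probe set), *H2aw* by 5.75, *H2bc22* by 5.34 and *H3c4* by 4.94. Histone genes are near-identical copies, and several of these probe sets can bind more than one of them, so the gene named is uncertain. From shorter 4sU pulses in cells without IFN, the paper attributes the histone rise mainly to altered RNA processing rather than synthesis. That was not tested here. Of 10 variant histones *H2ax* rose by 3.26 (SE 0.41) and *H3f3b* by 2.08 (SE 0.42) and none fell. These rises were 20% of the variants, against 3.98% of all genes. The call of *H3f3b* was lost without IFNα replicate 1 or 3 or IFNα + CHX replicate 2 (adjusted p up to 0.0142).

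Further large rises were those of *Ifnz*, annotated as limitin or interferon zeta, from 5.38, 5.19 and 4.68 to 11.40, 11.44 and 11.48 (6.36, SE 0.33, adjusted p = 2.10e-08), and in mock cells by 6.75. It was 1 of only 2 interferon genes tested, and *Ifna1* differed by -0.42. The transcript *4930412F09Rik* rose by 6.17 (SE 0.26) and *Txnip*, which encodes a thioredoxin inhibitor responsive to glucose, from 5.37, 6.11 and 5.80 to 10.72, 11.35 and 9.50 (4.76, SE 0.62).

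**Figure D4:**
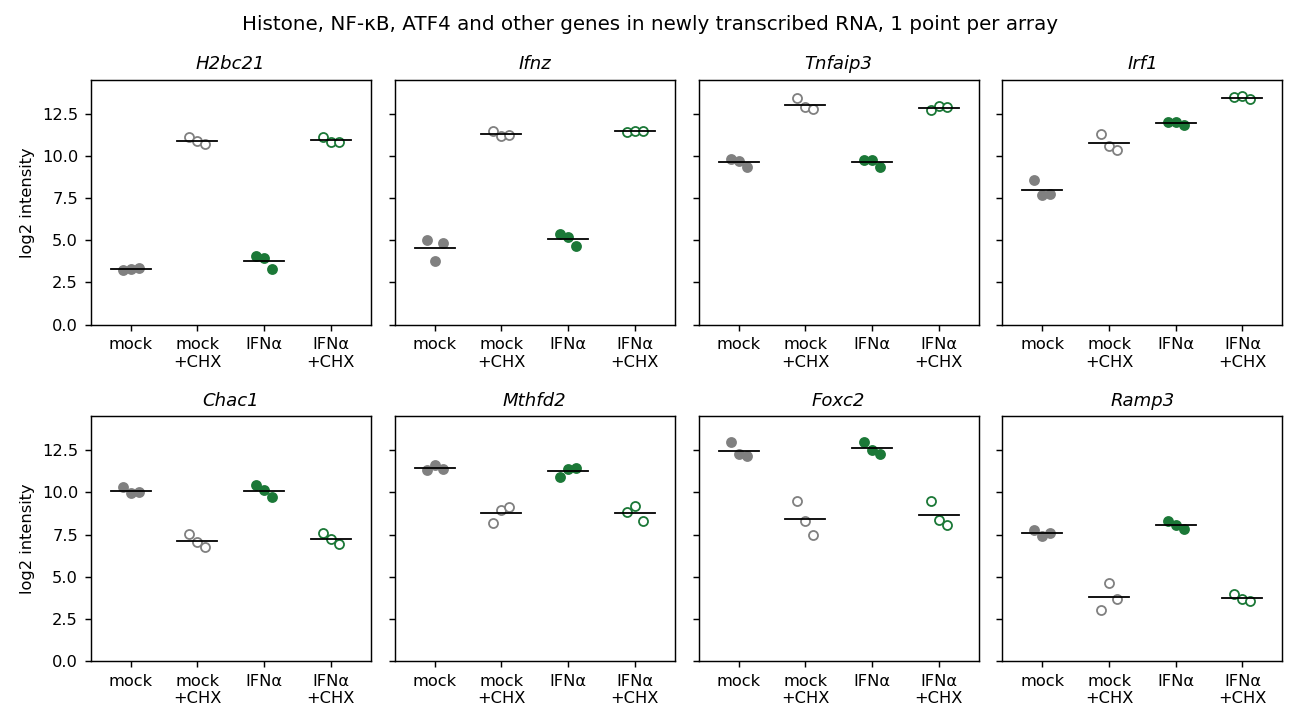
Log2 intensity of 8 genes outside or at the edge of the IFN response in mock (grey) and IFNα cells (green), without (filled) and with CHX (open), 1 point per array and a line at the mean of 3 arrays. All 8 genes moved in the same direction in both, and *Irf1* did so from different starting levels.

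NF-κB regulators and targets rose in part. NF-κB is held in the cytoplasm by IκB proteins and switches on inflammatory and survival genes, including those of its own inhibitors. Of 42 tested genes 16 were higher (38.1%, against 3.98% of all genes) and 2 lower (4.76%, near the 4.48% of all genes). The median was 0.74, and in mock cells 19 were higher and 3 lower with a median of 0.85. *Traf1*, an adaptor of TNF receptors, rose from 2.26 on all 3 arrays to 7.15, 6.64 and 7.40 (4.80, SE 0.46, adjusted p = 5.89e-06, and 2.85 on log2(value + 16)). The chemokine gene *Cxcl2* rose by 4.23 (2.62 on that scale), *Tnfaip3*, which encodes the inhibitor A20, from 9.78, 9.72 and 9.33 to 12.71, 12.97 and 12.87 (3.24, SE 0.21), and *Birc3*, an inhibitor of apoptosis, by 2.58. Subunits of NF-κB (*Rela*, *Rel*, *Relb*, *Nfkb2*) were among the rises with differences of 1.80 to 2.18. *Cxcl10*, also an ISG, rose from 11.56, 11.47 and 11.06 to 13.95, 13.76 and 13.17 (2.26, SE 0.43), and by 3.73 in mock cells. The falls were *Cx3cl1* (-1.85) and *Tnfsf9* (-2.13), the latter not called without IFNα replicate 1 or 2 or IFNα + CHX replicate 3 (adjusted p up to 0.0140).

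Matches to the NF-κB decamer stood in 19 of 33 genes of this list with a promoter window (57.6%), against 1186 of 9821 tested genes (12.1%) and 8.46% of all windows. Stretches of the same RefSeq windows are given for 3 genes above, with the decamer in capitals.
*Tnfaip3* (chr10:19015403-19015432, plus strand): ttgccaacagGGGGATTTCCgatggaaatt
*Cxcl2* (chr5:90903792-90903821, plus strand): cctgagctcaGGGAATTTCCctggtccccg
*Irf1* (chr11:53769991-53770020, minus strand): aacacttagcGGGATTCCCCggcccggact

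Immediate-early genes, transcribed within minutes of a stimulus without new protein, gave 6 rises (15.8%, against 3.98% of all genes) and 3 falls (7.89%, against 4.48%) among 38 tested (median 0.43), and 10 rises with the replicate number as a block. *Egr4* rose from 1.14, 1.14 and 1.07 to 6.35, 5.56 and 5.41 (4.66, SE 0.80, and 1.97 on log2(value + 16)), *Atf3*, a stress-induced transcription factor gene, by 2.88 (SE 0.30), *Arc* by 2.34 (SE 0.47) and *Egr2* by 1.40 (SE 0.15). *Arc* was not called without IFNα replicate 3 or IFNα + CHX replicate 1 (adjusted p up to 0.0165). The falls were *Cebpd* (from 12.81, 12.62 and 12.28 to 10.74, 10.46 and 9.98), the clock gene *Per1* (-1.70) and the nuclear receptor gene *Nr4a2* (-1.27). Feedback inhibitors of MAP kinases split, with *Dusp8* (2.81, SE 0.44) and *Dusp16* (2.49, SE 0.19) higher and *Dusp7* (-1.63), *Dusp5* (-1.61) and *Dusp2* (-1.01) lower among 17 tested. The rises were 11.8% (against 3.98% of all genes) and the falls 17.6% (against 4.48%). The small fall of *Dusp2* was not called without any array except IFNα replicate 3 (adjusted p up to 0.0325), nor with an added constant of 1 or 16, and was -0.48 with the latter.

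Among the falls, genes of the amino acid response driven by ATF4 had the most falls of any list used. ATF4 is a short-lived transcription factor that raises amino acid transporters and synthetic enzymes. Of 26 tested genes 19 were lower (73.1%, against 4.48% of all genes) and none higher, with a median of -1.64. *Chac1*, which degrades glutathione, fell from 10.43, 10.17 and 9.70 to 7.60, 7.25 and 6.93 (-2.84, SE 0.29, adjusted p = 1.12e-05). *Vldlr*, a lipoprotein receptor gene, fell by 2.81 (SE 0.42), *Mthfd2*, of mitochondrial folate metabolism, from 10.90, 11.40 and 11.44 to 8.86, 9.21 and 8.33 (-2.45, SE 0.37), and *Ddit4*, an inhibitor of mTORC1, by 2.43 (SE 0.56). The call of *Ddit4* was lost without IFNα replicate 1 or 2 or IFNα + CHX replicate 2 or 3 (adjusted p up to 0.0335). RNA of *Atf4* itself differed by 0.39 (adjusted p = 0.0103). The motif TGATGNAA, the constant part of the amino acid response element, stood in 8 of 24 of these genes with a window (33.3%), against 287 of 9821 tested genes (2.92%) and 3.97% of all windows. It is given in capitals for 2 of the genes just named.
*Chac1* (chr2:119351038-119351067, minus strand): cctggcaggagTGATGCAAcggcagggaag
*Vldlr* (chr19:27216809-27216838, minus strand): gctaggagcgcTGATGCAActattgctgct

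Of 43 tested ribosome biogenesis genes and other Myc targets 13 were lower (30.2%, against 4.48% of all genes). None was higher and 30 were not called, with a median of -0.75. The RNA polymerase I subunit gene *Polr1b* went from 8.42, 7.95 and 7.56 to 6.38, 5.91 and 5.53 (-2.04, SE 0.29, adjusted p = 1.82e-04), *Ppat*, which starts purine synthesis, fell by 1.81, *Timm8a1*, of mitochondrial protein import, by 1.76, and *Nop16*, a nucleolar protein gene, by 1.67. Without IFNα + CHX replicate 3 the count was 8. *Myc*, picked after its value was seen, differed by 0.18 (adjusted p = 0.754). Its binding site, the E-box CACGTG, was in 11 of 37 of these genes with a window (29.7%), against 1119 of 9821 tested genes (11.4%) and 7.15% of all windows.

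Cell cycle genes under E2F gave 4 falls (9.30%, against 4.48% of all genes) and no rise among 43 (median -0.34), and 1 rise without IFNα replicate 1. The falls were the phosphatase gene *Cdc25a* (-1.78, SE 0.22), the cyclins *Ccne2* (-1.70, SE 0.27) and *Ccne1* (-1.06, SE 0.23), and the histone chaperone gene *Chaf1b* (-1.16, SE 0.22). The call of *Ccne1* was lost without IFNα replicate 1 or 2 or IFNα + CHX replicate 2 or 3 (adjusted p up to 0.0236) and that of *Chaf1b* without IFNα replicate 3 (adjusted p = 0.0109). Targets of p53 moved in both directions, with 6 falls (28.6%, against 4.48% of all genes) and 2 rises (9.52%, against 3.98%) among 21. *Phlda3*, an inhibitor of AKT, fell by 1.76 (SE 0.18) and the exonuclease gene *Aen* by 1.36 (SE 0.21), beside *Ddit4* and *Sesn2* (-2.26), which are in the ATF4 list too. *Gadd45a* rose from 9.76, 9.83 and 9.33 to 12.37, 11.93 and 11.40, and the death receptor gene *Fas* by 1.34 (SE 0.13).

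The largest falls of all were those of *Ramp3*, an accessory protein of the calcitonin receptor-like receptor, from 8.32, 8.10 and 7.84 to 3.96, 3.71 and 3.60 (-4.33, or 20.1-fold, SE 0.37, adjusted p = 1.96e-06), and of the folate carrier gene *Slc19a1*, from 7.18, 7.22 and 7.25 to 2.96, 3.56 and 2.72 (-4.13, SE 0.37, and -2.74 on log2(value + 16)). Among forkhead transcription factor genes *Foxc2* fell from 13.01, 12.54 and 12.28 to 9.48, 8.35 and 8.09 (-3.97, SE 0.53) and *Foxs1* by 3.52 (2.27 on that scale). *Mmd* and *Mgp*, the matrix Gla protein gene, each fell by 3.63, *Tmem268* by 3.52, *Grasp* by 3.41 and *Sphk1*, the sphingosine kinase gene, by 3.38. A probe set annotated to the locus of *Mir1949* fell by 3.47. It does not measure the mature microRNA. Of 35 tested developmental transcription factors 5 were lower (14.3%, against 4.48% of all genes) and none higher (median -0.23). These were *Foxc2*, *Foxf1* (-3.004), *Hes1* (-2.12), *Sox9* (-1.42) and, outside the naming rule, *Hoxa5* (-1.32). *Hes1*, a Notch target, was not called without any array except IFNα replicate 3 (adjusted p up to 0.0273).

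Among the genes named above, *Aen*, *Ccne1*, *Cebpd*, *Cx3cl1*, *Dusp8*, *Foxf1*, *Irf3*, *Nr4a2*, *Sh2b3*, *Sox9*, *Tapbp* and *Vldlr*, and *Tgfb2* given next, also had at least 1 probe set that was not called. Values on such a probe set included -0.02 for *Vldlr*, -0.44 for *Cebpd* and -0.99 for *Foxf1*.

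Other lists held few or no calls. Among 17 genes of TGFβ and BMP feedback *Tgfb2* (1.95, SE 0.16) and *Smad6* (1.30, SE 0.28) rose (11.8%, against 3.98% of all genes) and none fell. The call of *Smad6* was lost without IFNα replicate 2 or 3 or IFNα + CHX replicate 2 or 3 (adjusted p up to 0.0232). Of 29 mRNA decay regulators only the deadenylase gene *Pan2* was called (1.08, SE 0.24), which is 3.45%, near the 3.98% of all genes. It was not called without any array except IFNα + CHX replicate 1 (adjusted p up to 0.0266). None of 16 sterol synthesis genes, 17 SR splicing genes and 30 ribosomal protein genes was called. Ribosomal protein genes had a median of -0.33 and lay between -0.86 and 0.14.

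**Figure D5:**
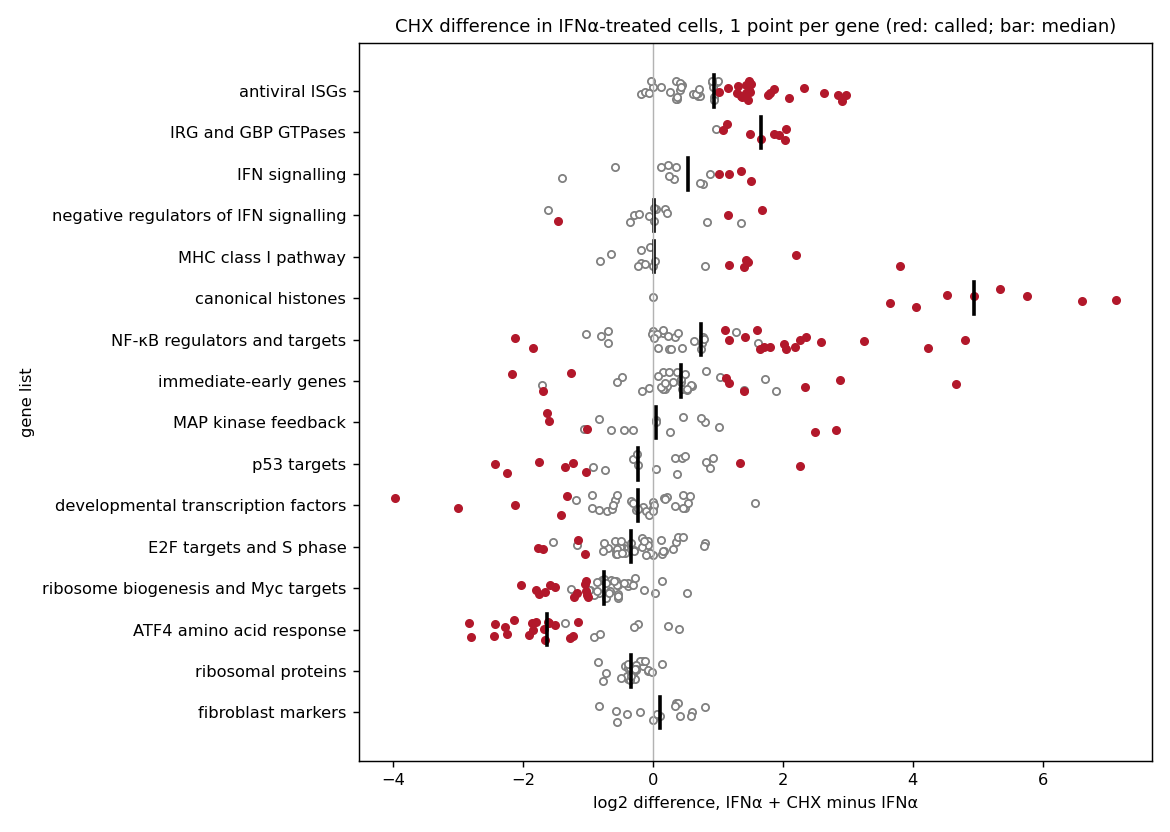
Log2 difference between IFNα cells with and without CHX (x axis) for the tested members of 16 gene lists, 1 point per gene, with called genes in red and the median of each list as a bar. GTPase, antiviral and histone genes lie mostly to the right of 0, and ATF4 and ribosome biogenesis genes mostly to the left.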

How the data were processed

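RNA labelled with 4sU was measured on 18 Affymetrix MG 430 2.0 arrays, 3 per treatment, described by the study as biological replicates. The authors summarised the arrays with gc-RMA (Affymetrix Expression Console in the submitters' processing notes) and deposited linear intensities, 1 per probe set. Arrays have no read depth, so precision rests on how many arrays there are. Of 45101 probe sets 64 controls were left out, and 27773 that reached 8.5 on any array were kept. Log2 values were fitted with limma 3.58.1 in R 4.3.3 over all 18 arrays as 6 group means (12 residual and 2.05 prior degrees of freedom). P-values were adjusted by Benjamini-Hochberg over all kept probe sets, and a call needed an adjusted p under 0.01 and at least 2-fold. Differences between cells were tested as contrasts of 2 CHX differences. The script was tested on simulated data. Genes were named through the platform annotation (34741 of 34945 probe sets with 1 gene matched by Entrez ID).

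Genes were named by rule: the 10 largest rises and falls, up to 4 called members per direction of each of 25 lists, all called interferon, IFN signalling and negative regulator genes, and the 8 (mock) and 5 (IFNγ) largest differences per direction between cells. Others were chosen after their values were seen. The comparison and all lists were chosen with earlier results of these data known. Same-numbered arrays deviated together from their group means (r 0.618, 0.241 and 0.317 with IFNα, 0.239 to 0.761 over all groups), so the numbers may pair the samples. The main fit left this pairing out, and the replicate block among the alternatives used it. Promoter windows came from RefSeq (GRCm38.p6). Alternatives were added constants, filters, normalization, the replicate block, the arrays fitted, an intensity trend and leaving out each array.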

Additional observations from a re-analysis of the deposited data

Results flagged for a closer look

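The difference with CHX itself differed between cells treated in different ways, as tested by limma contrasts. It was larger in IFNα than in mock cells for 52 probe sets, larger than in IFNγ cells for 39 and smaller than in IFNγ cells for 24. The largest log2 differences from mock cells were those of *Cxcl9* (5.52), *Cxcl11* (4.49), *Rsad2* (3.87), *Nlrc5* (3.43), *Cyp26a1* (3.35), *Apol7a* (3.00), *Oasl1* (2.83) and *Sp100* (2.80). Against IFNγ cells they were those of *Krtap1-5* (4.26), *Rsad2* (3.91), *Cxcl9* (3.18), *Ccl11* (3.13) and *Gbp2* (3.02) on the higher side, and of the second *Cxcl9* probe set (-5.34), *Serpinb1a* (-4.62), *Icam1* (-4.39), *Serpinb1b* (-3.97) and *Sgk2* (-3.22) on the lower side. *Cxcl9* is on both sides, through 2 probe sets that disagree in sign.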

How the results depend on the processing

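With only the arrays of the groups compared, 579 probe sets were higher and 580 lower with CHX in IFNα cells. The signed difference was larger than in mock cells for 29, and larger than in IFNγ cells for 21 and smaller for 11. Median centring left 28 larger than in mock and 25 larger than in IFNγ cells. The replicate block gave 1282 higher and 1219 lower, 68 larger and 0 smaller than in mock cells, and 50 larger and 36 smaller than in IFNγ cells. It ended the call of *Parp14* against mock cells (adjusted p = 0.0117) and no other call of a named gene. Leaving out 1 array at a time gave 773 to 918 higher, 729 to 1021 lower, 38 to 45 larger and 0 to 2 smaller than in mock cells, and 26 to 44 larger and 14 to 35 smaller than in IFNγ cells. Of 96 named CHX differences in IFNα cells, 15 lost the call without some array, 17 with only the compared arrays and 6 on log2(value + 16). Of 37 differences from mock cells, 18 were lost with median centring and 17 with only the compared arrays, and of 46 from IFNγ cells 14 and 25. Signs changed only for uncalled differences near 0 in IFNα cells: *Serpinb1a* (0.0206 with median centring, -0.0201 to 0.0040 leaving out arrays), *Serpinb1b* (0.0281 with median centring, -0.0276 to 0.0190 leaving out arrays) and *Sgk2* (0.0173 with median centring, -0.0170 to 0 leaving out arrays). The cause of these changes was not tested. Levels near the filter lie close to background, which limits folds from there.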
